A study of Mus musculus with 4 samples.

Results

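The carbonic anhydrases were examined in brain endothelial cells (ECs) with and without *Foxq1*. The genes were taken by symbol from a list of 10 carbonic anhydrase genes. Of these, 6 had a row in the deposited table of 12693 genes (*Car2*, *Car3*, *Car4*, *Car5b*, *Car7* and *Car14*) and all 6 passed the filter on low values. *Car8*, *Car11*, *Car12* and *Car13* had no row and were not analysed here. The list was chosen by the difference between genotypes in these same samples, which was already known and was led by *Car4*. That difference is therefore given for these genes as a description, without a test.

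RNA was sequenced from C57BL/6 embryos at embryonic day 18, from cells sorted by CD31 (PECAM1, a surface protein of ECs) out of the cerebral cortex. The wild-type group (n = 2) consisted of littermates without the Cre transgene, and the *Foxq1* cKO group (n = 2) had the genotype FOXQ1fl/fl;Tie2-Cre. The Tie2 promoter drives Cre in ECs and is known to be active in blood cell lineages as well. The labels name brain as the tissue and do not say whether the samples of a group came from separate embryos, so the spread between them may be technical.

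Carbonic anhydrases are enzymes, most of them with zinc in the active site, that convert carbon dioxide and water to bicarbonate and a proton, and back. Family members differ in where they sit: CAR4 is held on the outer face of the plasma membrane by a glycosylphosphatidylinositol (GPI) anchor, CAR14 crosses the plasma membrane, CAR2, CAR3 and CAR7 are cytosolic, and CAR5B is imported into mitochondria. In the brain, CAR4 is known as an enzyme of the luminal surface of capillary ECs, where carbon dioxide passes between tissue and blood.

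The table held between 15827166 and 21466436 reads per sample on its genes, as normalized counts, that is, reads divided by 1 size factor per sample. *Foxq1* itself stood at 353 and 297 normalized counts with the gene intact and at 5.44 and 32.6 after its deletion. The listed endothelial markers (12 of 12 with a row, *Cldn5* and *Pecam1* among them) summed to between 280057 and 303098 normalized counts in wild-type and between 257334 and 274179 in *Foxq1* cKO samples. Pericyte markers (8 of 8 with a row) were also abundant, with sums of 153361 to 155361 against 146111 to 160522. The wild-type 1 sample stood apart: its log2 values correlated with those of the other samples at r = 0.842 to 0.859, and the other samples with each other at 0.878 to 0.904, across 12472 genes of these 4 libraries. The difference of each carbonic anhydrase gene is therefore also given without it. Microglia and macrophage markers (10 of 10 with a row) summed to between 9786 and 12433 normalized counts in wild-type and between 7340 and 8455 in *Foxq1* cKO samples. These ranges did not overlap, nor did those of the endothelial markers, and their part in the differences of the carbonic anhydrase genes was not tested. Radial glia and astrocyte markers (10 of 10 with a row) gave sums of 26512 to 27713 against 24270 to 26651, which overlapped.

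Every one of the 6 genes had groups that did not overlap. *Car4*, *Car14* and *Car2* were higher in both *Foxq1* cKO samples, and *Car5b*, *Car3* and *Car7* were lower in both. Such an arrangement was found in 36% of all genes tested, in 18% with *Foxq1* cKO higher and in 18% with *Foxq1* cKO lower. Since the genes were listed with these values known, nothing is read from their count. The seventh carbonic anhydrase in the table, *Car5a*, is not on the list and was looked up after the values of the others had been seen. Its groups overlapped, since the wild-type samples, at 35.4 and 83.7 normalized counts, lay on either side of the *Foxq1* cKO samples, at 66.4 and 67.1.

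**Figure D1:**
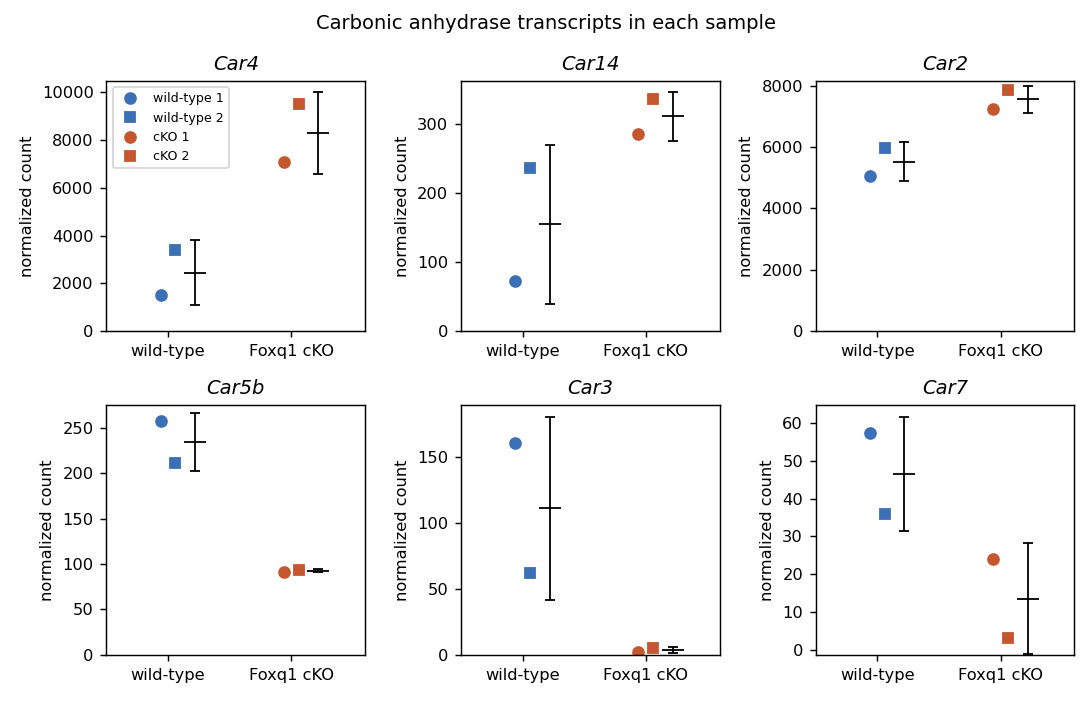
Normalized counts (vertical axes, linear, a separate scale for each gene) of the 6 carbonic anhydrase genes in 2 wild-type (blue) and 2 *Foxq1* cKO (orange) samples; circles are replicate 1 and squares replicate 2, and the black bars beside them give the mean ± SD of each group (n = 2), which reaches below 0 for *Car7* in *Foxq1* cKO samples. The *Foxq1* cKO samples lie above both wild-type samples for *Car4*, *Car14* and *Car2* and below both for *Car5b*, *Car3* and *Car7*.

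The genes lie at separate places in the genome, apart from *Car2* and *Car3*. In the GRCm38 annotation (GENCODE M21, matched by identifier, while the labels name mm9 for the processing), *Car3* occupies 14863512 to 14872523 and *Car2* 14886273 to 14900770 of chromosome 3, both on the plus strand. These adjacent genes differed in opposite directions. *Car14* lies farther along chromosome 3 on the minus strand (95897768 to 95904691), *Car4* on the plus strand of chromosome 11 (84957786 to 84966044), *Car7* on the plus strand of chromosome 8 (104534689 to 104550343) and *Car5b* on the minus strand of chromosome X (163976822 to 164027997). All 6 are protein-coding genes.

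Promoter sequences from RefSeq (GRCm38.p6) were held for 4 of the 6 genes, *Car4*, *Car14*, *Car5b* and *Car7*. The 250 bases before the annotated start were searched on both strands for GTTTC, the pentamer that the study names for FOXQ1 binding, and for TGTTTA, a common core of forkhead factor sites. The motifs share the letters GTTT, and the base after these differs, so no stretch matches both there. Sequences are printed for *Car4* and *Car14*, the membrane enzymes with higher values, and for *Car5b*, the steadiest of the genes with lower values, in the direction of transcription, with any match in capitals.

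Car4 (chr11:84957504-84957753, plus strand): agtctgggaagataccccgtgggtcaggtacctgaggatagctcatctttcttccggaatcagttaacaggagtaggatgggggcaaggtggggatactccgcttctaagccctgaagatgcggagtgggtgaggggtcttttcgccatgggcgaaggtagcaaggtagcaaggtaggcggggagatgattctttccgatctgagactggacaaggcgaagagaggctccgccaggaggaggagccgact

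Car14 (chr3:95904686-95904935, minus strand): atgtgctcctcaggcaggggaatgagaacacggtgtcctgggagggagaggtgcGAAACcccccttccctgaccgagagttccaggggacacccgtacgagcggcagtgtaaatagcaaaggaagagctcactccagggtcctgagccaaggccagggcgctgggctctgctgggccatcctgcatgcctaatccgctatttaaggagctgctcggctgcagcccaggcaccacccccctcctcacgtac

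Car5b (chrX:164028011-164028260, minus strand): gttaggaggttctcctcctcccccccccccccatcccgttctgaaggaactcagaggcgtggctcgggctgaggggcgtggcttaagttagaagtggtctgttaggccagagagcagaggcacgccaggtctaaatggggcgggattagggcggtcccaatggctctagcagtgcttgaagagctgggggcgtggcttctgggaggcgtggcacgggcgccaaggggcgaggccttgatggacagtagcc

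*Car14* held 1 match, to GAAAC, the reverse complement of GTTTC, and the windows of *Car4*, *Car5b* and *Car7* (3 annotated starts) held none of either motif. Of 32851 mouse promoter windows of this length, 39.7% held GTTTC on either strand, and 3952 held TGTTTA. These windows do not include distal elements, and a match or its lack describes the letters only.

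*Car4*, the surface enzyme of brain capillaries, had the largest difference among the 3 genes with higher values. Wild-type samples reached 1496 and 3422 normalized counts (1776 and 3432 reads), whereas *Foxq1* cKO samples reached 7106 and 9530 (6527 and 9368 reads). The lowest *Foxq1* cKO sample was thus 2.08-fold above the highest wild-type sample, while the spread within groups was 2.29-fold for wild-type and 1.34-fold for *Foxq1* cKO. The group means were 2459 ± 1361 (SD, n = 2) and 8318 ± 1714 (SD, n = 2), a ratio of 3.38. The difference of *Foxq1* cKO minus wild-type in log2(normalized count + 1), the scale of every log2 difference here, was 1.86 (standard error 0.396). Without wild-type 1 the difference was 1.27, and without wild-type 2 it was 2.46. RNA was taken from sorted populations, so a change in RNA per cell and a change in the share of cells that make the transcript cannot be told apart.

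*Car14*, whose product is a transmembrane enzyme with its active site outside the cell, was far less abundant. Its wild-type samples lay at 73.3 and 236 normalized counts, and its *Foxq1* cKO samples at 286 and 337. The wild-type samples differed by 3.22-fold, more than the 2.01-fold between the group means, and the gap between the nearest samples of the groups was 1.21-fold. The log2 difference was 1.23 (standard error 0.745), but 0.39 without wild-type 1 and 2.07 without wild-type 2. *Car14* overlaps *Aph1a*, which encodes a gamma-secretase subunit and is read in the opposite direction, along 521 bp. Whether reads were counted by strand is not given in the sources used here. The groups of *Aph1a* overlapped, with wild-type samples at 2092 and 1462 normalized counts and *Foxq1* cKO samples at 1760 and 1565. The part of shared reads in the values of *Car14* was not tested.

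*Car2*, the fast cytosolic enzyme known from red cells, choroid plexus and oligodendrocytes, was the steadiest of the 3. Wild-type values of 5068 and 5978 normalized counts stood against *Foxq1* cKO values of 7246 and 7864. Within either group the samples differed by at most 1.18-fold, and the group means by 1.37-fold. Its log2 difference of 0.46 (standard error 0.159) lay between 0.34, without wild-type 1, and 0.57, without wild-type 2. Erythroid markers (7 of 12 with a row, the globins among them) summed to between 15770 and 20859 normalized counts in wild-type and between 16022 and 20516 in *Foxq1* cKO samples, so these ranges overlapped. Of the oligodendrocyte lineage markers, 3 of 9 had a row, *Mbp* not among them, and their sums also overlapped. Choroid plexus markers (2 of 7 with a row, *Ttr* and *Enpp2*) summed to 2111 to 2842 normalized counts in wild-type and 2777 to 3210 in *Foxq1* cKO samples, ranges that overlapped. *Ttr* had at most 41.3 normalized counts in any sample, so nearly all of these sums came from *Enpp2*. The part of these cell types in the values of *Car2* was not tested.

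*Car5b* encodes the mitochondrial enzyme that is expressed in many tissues and supplies bicarbonate inside the organelle. Values were 257 and 211 normalized counts for wild-type and 91.4 and 93.6 for *Foxq1* cKO. The *Foxq1* cKO samples nearly coincided, with a mean at 39.5% of that of wild-type. Their log2 difference was -1.32 (standard error 0.640), and with each sample left out in turn it stayed between -1.46 and -1.18 (the value without wild-type 1), the narrowest such range on the lower side. *Car5a*, the other mitochondrial enzyme of the family and known mainly from liver, had a log2 difference of 0.29 (standard error 0.880).

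*Car3*, a cytosolic enzyme with low activity that is abundant in skeletal muscle and fat, had the largest difference of all. Wild-type samples held 190 and 62 of its reads, and *Foxq1* cKO samples 2 and 5, which gave 160 and 61.8 against 2.18 and 5.09 normalized counts. Over the summed reads of each group, wild-type exceeded *Foxq1* cKO by 31.3-fold, with an exact 95% interval from 15.0 to 78.6 that covers counting error only. The wild-type samples themselves differed by 2.59-fold. The log2 difference was -4.52 (standard error 1.08), and -3.84 without wild-type 1. Fibroblast markers, the list for connective tissue, had 4 of 6 genes with a row (*Dcn* and *Lum* not among them) and summed to 8790 to 9941 normalized counts in wild-type and 5736 to 9434 in *Foxq1* cKO samples. No muscle or fat markers were listed. The part of fibroblasts in the values of *Car3* was not tested.

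*Car7*, a cytosolic enzyme known from neurons, was the least abundant in wild-type samples. Its reads numbered 68 and 36 for wild-type and 22 and 3 for *Foxq1* cKO, or 57.3 and 35.9 against 24.0 and 3.05 normalized counts. The *Foxq1* cKO samples differed from each other by 7.85-fold, more than the group means. Over summed reads wild-type exceeded *Foxq1* cKO by 3.61-fold (exact 95% interval 2.32 to 5.84, counting error only). The log2 difference was -2.21 (standard error 1.24), -1.88 without wild-type 1 and -0.89 without *Foxq1* cKO 2, the sample with 3 reads. Neuronal markers (9 of 12 with a row, *Tubb3* and *Dcx* among them) summed to 5796 to 6497 normalized counts in wild-type and 4352 to 6029 in *Foxq1* cKO samples, and their part in the values of *Car7* was not tested.

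**Figure D2:**
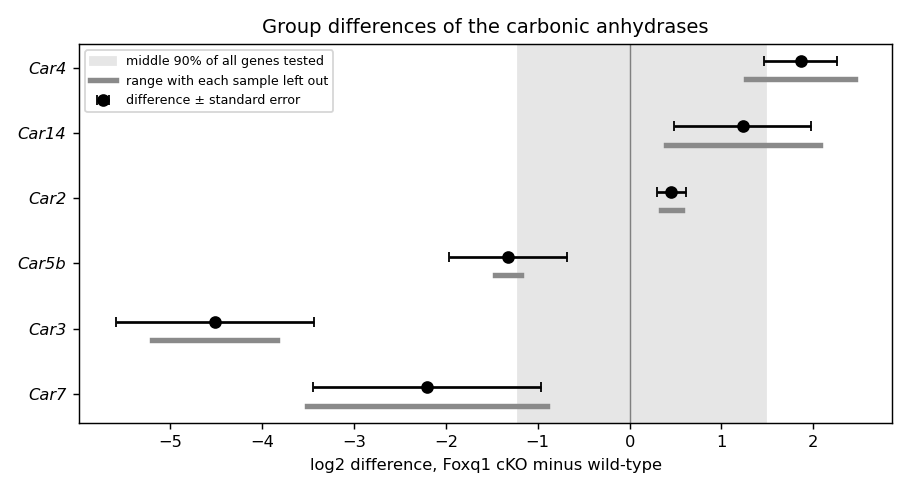
Log2 difference between *Foxq1* cKO and wild-type samples (horizontal axis) for each carbonic anhydrase gene, as the estimate with its standard error (black) and as the range obtained with each of the 4 samples left out in turn (grey bar); the shaded band spans the middle 90% of all 12472 genes tested, from -1.22 to 1.49. *Car4*, *Car5b*, *Car3* and *Car7* lie outside the band, and the left-out ranges of *Car4*, *Car14*, *Car5b* and *Car7* reach into it.

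Levels of different genes were compared as RPKM, here reads scaled to the length of the longest annotated transcript and to the reads on all listed genes. In wild-type samples the most abundant transcript was *Car2*, at 157 and 187 RPKM, followed by *Car4* at 65.9 and 153. In *Foxq1* cKO samples the order of these 2 genes was the other way round, with *Car4* at 328 and 440 and *Car2* at 235 and 255. *Car4* made up 27.9% and 43.1% of the summed level of the 6 genes with *Foxq1* intact, against 57.0% and 62.1% in *Foxq1* cKO samples. Both genes stood high among all listed genes ranked by level per length, with *Car2* between percentiles 97.4 and 98.7 and *Car4* between 91.7 and 99.3 over the 4 samples.

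The other 4 genes held between 1.87% and 5.68% of the summed level in any sample. In wild-type samples *Car14* lay at 2.37 and 7.75 RPKM, and the means were 3.79 ± 0.487 for *Car5b*, 3.67 ± 2.27 for *Car3* and 1.33 ± 0.421 for *Car7* (RPKM, SD, n = 2). *Car14*, *Car5b* and *Car3* were thus not separated from each other beyond their spread, and *Car7* was the lowest in both samples. In *Foxq1* cKO samples *Car14* (10.6 ± 1.20 RPKM) was clear of *Car5b* (1.56 ± 0.0239), and *Car7* (0.403 ± 0.442) and *Car3* (0.125 ± 0.0709) were not separated.

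**Figure D3:**
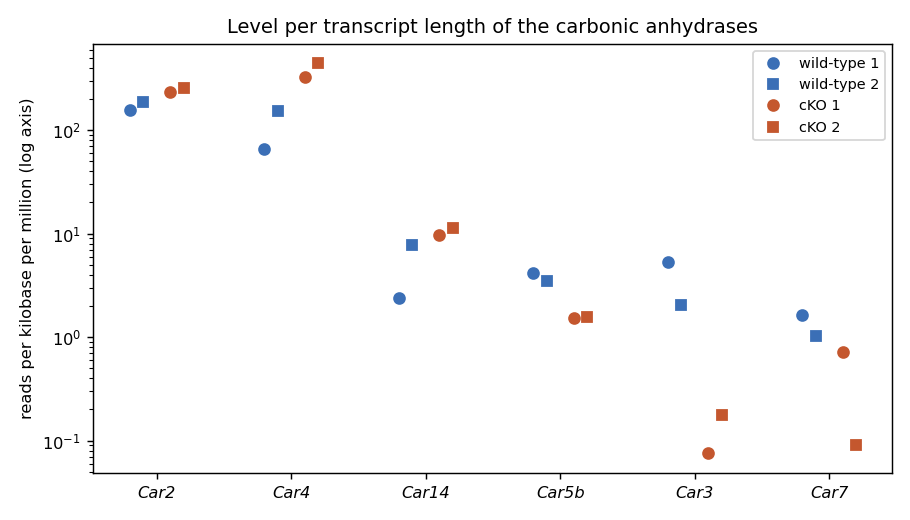
Level per transcript length (vertical axis, log scale, RPKM) of each carbonic anhydrase gene in 2 wild-type (blue) and 2 *Foxq1* cKO (orange) samples, 1 point per sample. *Car2* lies above *Car4* in both wild-type samples and below it in both *Foxq1* cKO samples, and the remaining genes lie at 11.4 or lower.

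Partners of the enzymes were taken as whole families. Bicarbonate and protons made by carbonic anhydrases leave or enter cells through the Slc4, Slc26, Slc9 and lactate-proton (Slc16) transporters, and bicarbonate is the substrate of the carboxylases. Over 9 lists of 97 partner genes, 51 were tested with limma, and 3 were higher and 2 lower in *Foxq1* cKO samples at an unadjusted p under 0.05. These are 9.80% of the partner genes, against 5.22% of all genes (651 genes, with 2.17% higher and 3.05% lower). *Piga*, among the 3 higher genes, was known to differ when its list was written, so nothing is read from this share. None passed Benjamini-Hochberg adjustment in limma, where 0 of 12472 genes did (0%) and the smallest adjusted p was 0.857. On the reads recovered from the values, DESeq2 gave 59 genes at an adjusted p under 0.05 and edgeR's quasi-likelihood test 0. The median log2 difference of the partner genes was 0.088, and that of all genes tested 0.0086.

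Among the Slc4 bicarbonate transporters (4 of 10 tested, median log2 difference 0.086, or -0.24 with edgeR or DESeq2), *Slc4a7*, a sodium-bicarbonate cotransporter that loads cells with bicarbonate, was higher. Its values were 254 and 271 normalized counts for wild-type and 640 and 587 for *Foxq1* cKO, a log2 difference of 1.22 (standard error 0.422, unadjusted p = 0.0273, adjusted p = 0.857, limma). The median of the list had no steady sign, at 0.53 without wild-type 1 and -0.59 without wild-type 2. The anion exchanger gene *Slc4a2*, with the highest mean in this list, had a log2 difference of -0.29. None of the 4 Slc9 sodium-proton exchangers tested passed an unadjusted p of 0.05, and the difference of *Slc9a8* was 0.89. None of the 3 Slc26 anion exchangers did either, with *Slc26a2*, a sulfate transporter, at -0.84 (unadjusted p = 0.0526, adjusted p = 0.857, limma) and *Slc26a11* at -0.35, which was also the median of that list (0.034 without wild-type 1).

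Of the lactate-proton transporters and their chaperones (4 of 6 tested, median -0.45), *Slc16a1*, the monocarboxylate transporter MCT1 of the blood-brain barrier, was lower. Its wild-type samples had 44369 and 42549 normalized counts and its *Foxq1* cKO samples 23742 and 28218, a log2 difference of -0.75 (standard error 0.119, unadjusted p = 0.000718, adjusted p = 0.857, limma). *Bsg*, which encodes the chaperone basigin of this transporter, had a difference of -0.16. The median of the list was -0.0052 without wild-type 1.

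Of the carboxylases that use bicarbonate (8 of 9 tested, median -0.45), *Pcx*, the mitochondrial pyruvate carboxylase, was lower. Normalized counts of 10204 and 8358 in wild-type stood against 5251 and 5817 in *Foxq1* cKO, a log2 difference of -0.74 (standard error 0.164, unadjusted p = 0.00393, adjusted p = 0.857, limma). *Pcca*, a subunit of propionyl-CoA carboxylase, had the next highest mean and a difference of 0.37. The other carboxylases did not pass the unadjusted threshold, and the median of the list was -0.12 without *Foxq1* cKO 1.

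Few genes of the remaining lists had a row. The water channel genes *Aqp4* and *Aqp11* had log2 differences of 0.13 and 0.084, the proton-sensing receptor gene *Gpr4* 0.088, and *Ptprz1*, a receptor phosphatase with a carbonic anhydrase-like domain, -0.43. None passed an unadjusted p of 0.05 in limma. *Aqp4* was also among the listed radial glia and astrocyte markers, and which cells its reads came from was not tested.

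CAR4 needs a GPI anchor to reach the cell surface, so the enzymes that build and attach the anchor were listed as well (24 of 28 tested, median log2 difference 0.24). The list was written with the values of *Piga* already known. *Piga*, which starts anchor synthesis, and *Pigv*, a mannosyltransferase of the pathway, were higher at an unadjusted p under 0.05. No listed gene was lower at that threshold, though some had negative differences. *Piga* values were 2.53 and 17.9 normalized counts for wild-type and 454 and 204 for *Foxq1* cKO (log2 difference 5.22, standard error 1.14, unadjusted p = 0.00366, adjusted p = 0.857, limma). In wild-type 1 and 2, 1 read stood for 0.843 and 0.997 normalized counts. The wild-type values of *Piga* thus rest on few reads, and the size of its difference depends on the pseudocount. *Pigv* had 173 and 116 normalized counts against 541 and 558 (log2 difference 1.95, standard error 0.522, unadjusted p = 0.00944, adjusted p = 0.857, limma). The most abundant genes of the list, *Pigs* and *Gpaa1* of the enzyme that attaches the anchor, had differences of -0.059 and 0.16. The median of the list was 0.40 without *Foxq1* cKO 1.

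**Figure D4:**
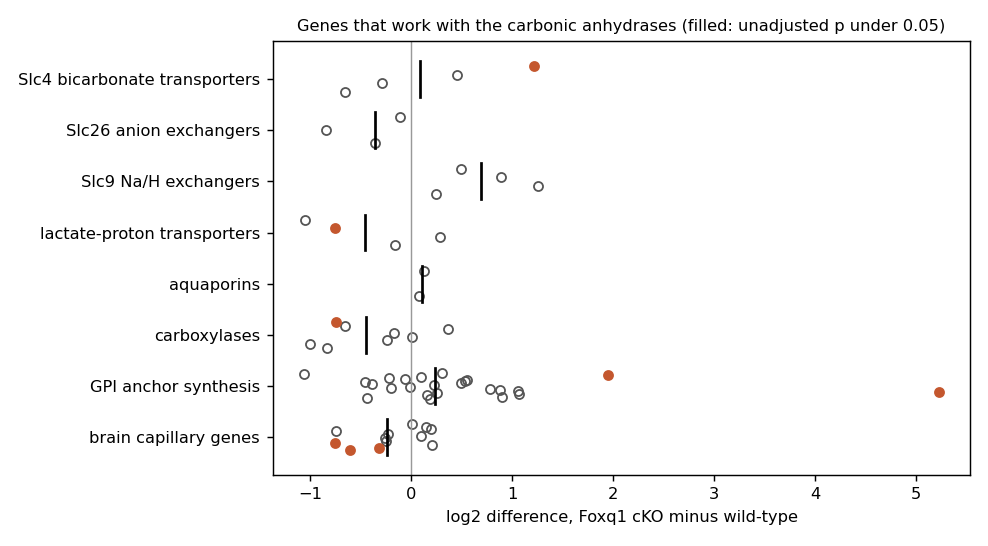
Log2 difference between *Foxq1* cKO and wild-type samples (horizontal axis) of each tested gene in 8 lists; filled points had an unadjusted p under 0.05 in limma, open points did not, and the black line is the median of the list (*Slc16a1* appears in 2 lists). *Slc4a7*, *Pigv* and *Piga* are the filled points to the right, the last at 5.22, and *Pcx*, *Slc16a1*, *Mfsd2a* and *Ly6c1* those to the left.

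Because *Car4* is a capillary gene in the brain, 12 other genes of brain capillary ECs were set beside it. Their median log2 difference was -0.24 against 1.86 for *Car4*, and none was higher at an unadjusted p under 0.05. *Car4* was picked for its large difference in these same samples, so nothing is read from the gap between it and this median. *Slc16a1* (above), *Mfsd2a*, the lipid transporter of the barrier, and *Ly6c1*, a GPI-anchored surface protein, were lower at that unadjusted threshold. These are 3 of the 12 genes, against 3.05% of all genes tested, and some other genes of the list had positive differences. The list was chosen with earlier results of these data known, so nothing is read from this share. *Mfsd2a* values were 29142 and 25765 normalized counts for wild-type against 22363 and 21721 for *Foxq1* cKO (log2 difference -0.31, standard error 0.113, unadjusted p = 0.0312, adjusted p = 0.857, limma). *Ly6c1* had 8510 and 5828 against 4168 and 5186 (log2 difference -0.60, standard error 0.231, unadjusted p = 0.0408, adjusted p = 0.857, limma). The most abundant, the glucose transporter *Slc2a1* and the proteoglycan *Spock2*, had differences of -0.26 and 0.15. Without wild-type 1 the median of the list was -0.046.

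The profile of *Car4* over the 4 samples was compared with those of 11398 other genes with a mean of at least 50, by the root mean square difference between log2 values centred on each gene's own mean. Among the 5 closest were *Depdc1a* (0.0894), *Utp25* (0.132), *Med31* (0.155) and *Ulk3* (0.182). *Depdc1a* had 35.4 and 80.8 normalized counts for wild-type and 181 and 204 for *Foxq1* cKO. With 4 samples such closeness is a description of these libraries.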

How the data were processed

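The RNA-seq data comprised 2 samples of each genotype, wild-type and *Foxq1* cKO. The authors deposited a signal per gene, found to be reads divided by 1 size factor per sample: 100% of values were whole multiples of the value of 1 read, within 0.01 reads. The processing notes in the labels name Bowtie2 2.2.3, TopHat2 2.0.12, HTSeq 0.6.0 and the build mm9, and the study names Smart-seq2. The 1207361 lines were collapsed to 12693 symbols. Each listed gene had at least 1 read in every sample and 21 in total, so genes without reads in some sample were not analysed here.

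Log2 of the value plus 1 was fitted with limma 3.58.1 (eBayes with a trend, R 4.3.3) across 12472 genes with a mean of at least 10, with Benjamini-Hochberg adjustment. The fit and its tests were run on simulated data, whose spread was set and not estimated from these samples. That run does not show how the p-values behave at the spread of these samples. Alternatives, among them DESeq2 1.42.0 and edgeR 4.0.16 on recovered reads, are given in the closing section. With 2 against 2 samples an exact two-sided permutation test cannot go below p = 0.333, so none was used for single genes. The 6 genes and the lists were chosen with earlier results of these data known. Named were the 6 genes, *Foxq1*, list genes with an unadjusted p under 0.05 or among the 2 highest means of a partner or capillary list, and the 5 profiles closest to *Car4*. *Aph1a*, *Car5a* and the markers were named outside this rule. Some genes that the rule names are not reported here. Intervals cover counting error only, since amplified reads without molecular identifiers are not independent molecules.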

Additional observations from a re-analysis of the deposited data

How the results depend on the processing

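All 6 carbonic anhydrase genes kept the direction of their difference in the 10 alternatives that kept the 4 samples and with each sample left out. The groups of each gene did not overlap, so leaving out a sample or changing the pseudocount or filter could not reverse the direction. Nothing is therefore read from the kept direction, and the ranges below describe the size of the differences. The log2 difference ranged over these 10 from 1.76 to 1.94 for *Car4*, from 1.01 to 1.24 for *Car14*, from 0.45 to 0.54 for *Car2* and from -1.41 to -1.29 for *Car5b*. With a pseudocount of 5, that of *Car3* was -3.63, since a larger pseudocount shrinks differences of low counts. *Car7*, with 9 alternatives because a minimum mean of 50 removed it, ranged from -2.56 to -1.72. With each sample left out in turn, where the lone sample of a group is assumed to vary like the others, the range was 1.27 to 2.46 for *Car4*, 0.39 to 2.07 for *Car14*, 0.34 to 0.57 for *Car2*, -5.20 to -3.84 for *Car3*, -1.46 to -1.18 for *Car5b* and -3.52 to -0.89 for *Car7*. Genes with an unadjusted p under 0.05 (651 in limma) numbered 592 to 824 over the 10 alternatives and from 276, without *Foxq1* cKO 1, to 1576, without wild-type 2. Genes with an adjusted p under 0.05 numbered 59 with DESeq2 and 0 in limma and the other alternatives; the cause was not tested. With the replicate number as a replicate block, limma gave 693 genes at an unadjusted p under 0.05 and 0 adjusted. Deviations of same-numbered samples had r = 0.032 across genes. With 4 samples this value cannot tell whether same-numbered samples shared a litter or a batch. With a sample left out, the median log2 difference ranged from -0.59 to 0.53 for Slc4, -0.73 to 0.034 for Slc26 and 0.31 to 0.89 for Slc9 transporters, from -0.50 to -0.0052 for lactate-proton transporters, from -0.46 to -0.12 for carboxylases, from 0.18 to 0.40 for GPI anchor enzymes and from -0.27 to -0.046 for brain capillary genes. With the union of exons as length, RPKM levels were 245 (*Car4*), 7.10 (*Car14*), 181 (*Car2*) and 0.844 (*Car5b*) in *Foxq1* cKO samples and 127 (*Car2*), 2.05 (*Car5b*) and 0.712 (*Car7*) in wild-type, as the longer length implies. Depth limits *Car3* and *Car7*, with 7 and 25 reads over the *Foxq1* cKO samples.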
